A study of Mus musculus with 12 samples.

Results

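The genes described here are 9 Polycomb group genes, chosen by name from the 19937 genes measured: *Ezh1*, *Ezh2*, *Eed* and *Suz12* of Polycomb repressive complex 2 (PRC2), and *Bmi1*, *Cbx2*, *Cbx7*, *Cbx8* and *Phc1* of Polycomb repressive complex 1 (PRC1). Each gene is represented by its probe set with a single gene symbol and the highest mean over the 12 arrays. All 9 genes passed the expression limit, a log2 level of 6.19 in at least 1 population mean, which is the 95th percentile of the same quantity over 1015 olfactory receptor genes. The study profiled RNA of 3 primary cell populations from the liver of E14.5 mouse embryos, a site of blood formation at that age, on GeneChip Mouse Gene ST arrays, with 4 biological replicates and 1 array each. Hematopoietic stem/progenitor cells (HSPC, deposited under the label HSC) were lineage-negative Sca1+ cells, and erythroblasts (ERY) were purified with Ter119 beads, and neither was cultured. Megakaryocytes (MEG) were grown from fetal liver progenitors that were expanded and then differentiated in thrombopoietin and selected for CD41, so that lineage and culture cannot be told apart in MEG. No strain, genotype change or drug treatment is given for any population in the sources used here.

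PRC2 methylates lysine 27 of histone H3, a mark of silent genes, through its catalytic subunit EZH1 or EZH2, which works only together with EED, the reader of the mark, and SUZ12, the scaffold. PRC1 ubiquitinates histone H2A through RING1 or RNF2, and its canonical form is brought to the methyl mark by a chromodomain subunit of the CBX family and holds BMI1 (also called PCGF4) and a Polyhomeotic subunit such as PHC1. In blood, BMI1 is known for the self-renewal of stem cells, EZH2 for dividing progenitors and EZH1 for cells that divide little, and CBX2, CBX7 and CBX8 are alternative subunits of canonical PRC1.

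The 9 genes lie on 5 chromosomes of GRCm38.p6, where the RefSeq table places *Cbx2* at chr11:119023019-119031275 and *Cbx8* at chr11:119036303-119040913, 5.03 kb apart. *Suz12* (chr11:79993106-80034123) and *Ezh1* (chr11:101191115-101226463) are on the same chromosome. *Ezh2* (chr6:47530274-47595270) and *Phc1* (chr6:122317731-122340227) share chromosome 6, and *Bmi1* (chr2:18677018-18686629), *Eed* (chr7:89954654-89980976) and *Cbx7* (chr15:79915804-79971143) are alone on theirs.

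RefSeq promoters of 300 bases, 250 before and 50 after a transcript start in GRCm38.p6, were at hand for 8 of the 9 genes, the exception being *Cbx2*. They held 52.0% to 71.0% G and C and 9 to 41 CpG dinucleotides, against medians of 52.7% and 7 over 32851 promoters of that length. Octamers of the E2F type, the factors of the G1/S transition, were searched on both strands as TTTCCCGC, TTTGGCGC, TTTCGCGC or TTTGCCGC, which share all letters but a central pair. They occurred in *Ezh2* and in *Suz12*, 1 time each, and in none of the other 6, and 2.26% of all promoters hold a match. The *Ezh2* and *Suz12* promoters hold 64.3% and 71.0% G and C and 31 and 41 CpG. The share among promoters of like composition was not counted, so enrichment was not tested. The GATA motifs AGATAA and TGATAA and the ETS motif CCGGAAG, held by 18.6% and 8.86% of all promoters, were in none of the 8 windows. The stretches with a match are shown as the only ones found among the members. They are 30 bases of the minus strand at chr6:47595011-47595040, where the octamer in capitals begins 3 bases after the transcript start, and 100 bases of the plus strand at chr11:79992856-79992955, where it begins 219 bases before the start.
Ezh2: ttgggttgctgcgTTTGGCGCtcggtccgg
Suz12: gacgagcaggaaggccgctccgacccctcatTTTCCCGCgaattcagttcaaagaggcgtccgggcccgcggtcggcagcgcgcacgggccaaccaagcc

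MEG and ERY carried their markers, and the stem and progenitor list was mixed. Of its 6 expressed genes, all 6 were called lower in ERY than in HSPC, and 4 lower and 2 higher in MEG. Higher in MEG were *Meis1* (mean 10.77, against 8.96 in HSPC) and *Slamf1* (11.75 against 7.43). *Mecom*, at a mean of 5.44 in HSPC, was under the expression limit. All 7 measured megakaryocyte genes were called higher in MEG than in HSPC, and all 7 measured erythroblast genes were called higher in ERY. Hepatocyte genes were also present: the median of 10 of them was 8.61 to 10.68 on the HSPC arrays, 10.95 to 11.54 on the ERY arrays and 5.34 to 5.93 on the MEG arrays, and all 10 were called higher in ERY than in HSPC, and 8 lower in MEG. Among them albumin (*Alb*) was at 10.83 to 12.43 in HSPC, 12.63 to 13.06 in ERY and 5.23 to 6.14, under the expression limit, in MEG. Of 9 expressed macrophage genes, 6 were called higher in ERY than in HSPC and 1 was called higher in MEG. The median of the 10 measured was 7.52 on MEG array 3 and 6.38, 6.44 and 6.64 on MEG arrays 1, 2 and 4. Of 8 endothelial genes, 1 was called higher and 4 lower in ERY, and 0 higher and 4 lower in MEG. Of 2 expressed mast cell genes, 1 was called lower in either lineage. The median of 8 myeloid genes was 11.12 to 11.89 in HSPC, 6.13 to 7.04 in ERY and 6.12 to 8.75 in MEG, and 7 were called lower in MEG and 8 in ERY. The part of these cells in the Polycomb levels was not tested, and fewer cells of a type and less RNA per cell cannot be told apart in such bulk samples. The HSPC arrays differed among themselves more than the others, with a median SD over expressed genes of 0.372 log2 units, against 0.320 in MEG and 0.155 in ERY. A single axis held 93.1% of their variance. On arrays 1 and 2, compared with arrays 3 and 4, 17.4% of expressed genes were higher by more than 1 log2 unit and 2.58% were lower by that much. Changes of the members from HSPC are therefore given with either pair left out, and those of other genes where a call that is printed was lost or its value moved by over 1.5 times.

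The HSPC spread was wide for *Suz12*, *Ezh2* and *Eed*, and narrow for *Ezh1*. *Suz12* was 2.36 log2 units higher on HSPC arrays 1 and 2 than on arrays 3 and 4, and only 0.765% of expressed genes had a larger range over the 4 HSPC arrays than its 3.16. The same difference was 1.56 for *Ezh2*, 1.53 for *Eed*, 0.97 for *Bmi1* and 0.35 for *Ezh1*, whose HSPC range of 0.41 was exceeded by 82.4% of expressed genes. It had the opposite sign for the other PRC1 genes, at -0.86 for *Cbx2*, -0.74 for *Cbx8*, -0.69 for *Cbx7* and -0.46 for *Phc1*, where the median of all expressed genes was -0.09. Of 15 mitosis genes, 8 were higher by over 1 log2 unit on HSPC arrays 1 and 2, and of 24 DNA replication genes 4 were. Among all expressed genes 17.4% were higher and 2.58% lower by that much, and in either list 0 were lower. Single genes went from -0.46 to 2.62 in the mitosis list and from -0.67 to 2.14 in the replication list. What lies behind this spread was not tested.

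**Figure D1:**
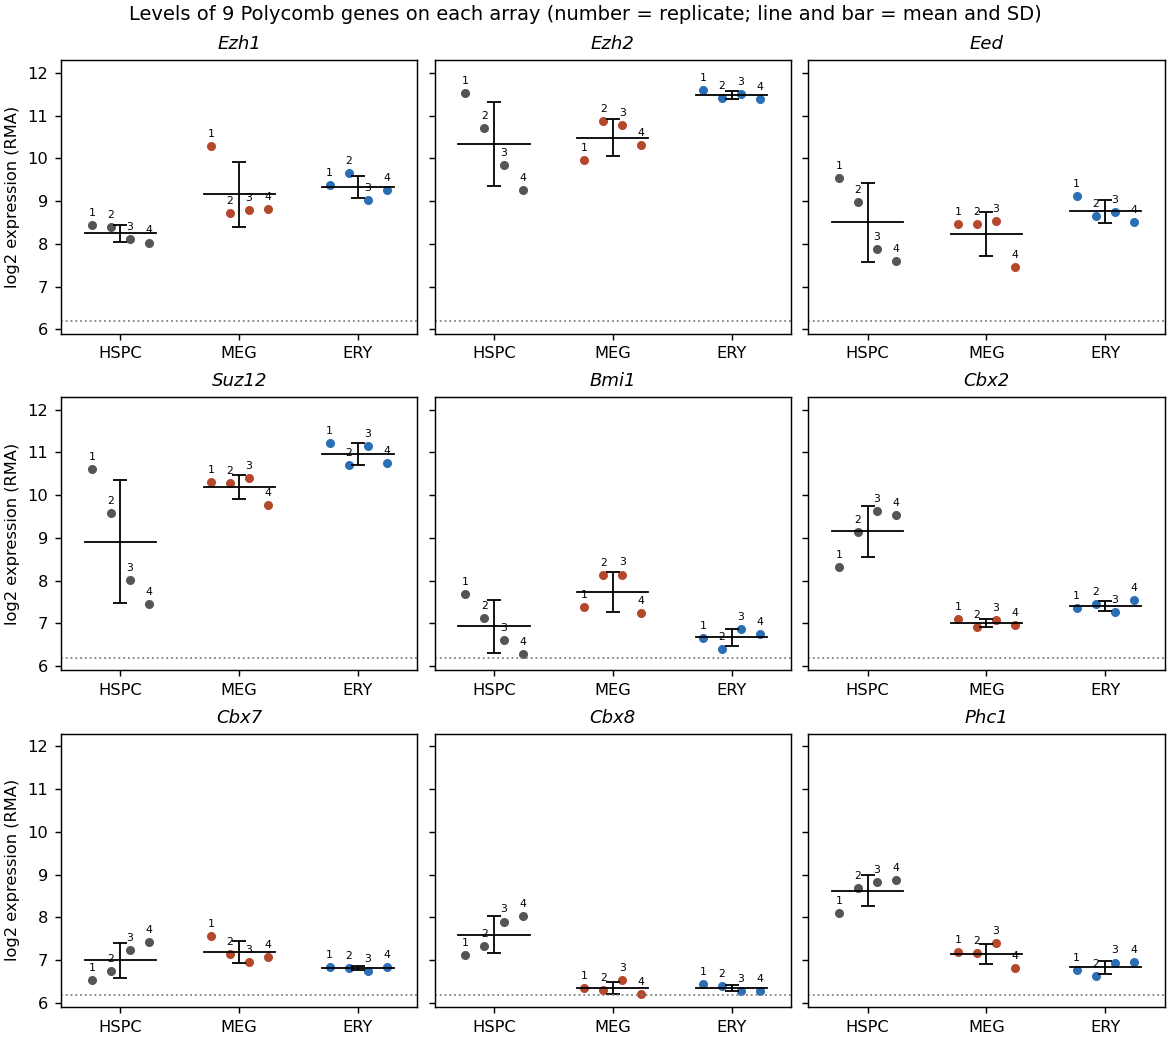
RMA log2 level (vertical axis) of each of the 9 genes on the 4 arrays of HSPC, MEG and ERY, with the array number at each point, the mean and SD as lines, and the expression limit of 6.19 dotted. The HSPC points of *Suz12* extend from 7.45 to 10.61, and those of *Cbx2*, *Cbx8* and *Phc1* lie above all MEG and ERY points.

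Between the populations, members were called at a change over 2-fold and a limma adjusted p under 0.05. In MEG, 0 were higher and 3 lower than in HSPC, and the backgrounds over all 12032 expressed genes were 14.2% higher and 18.8% lower. The count of 0 higher depended on the settings, with 3 higher after centring on ribosomal protein genes and 1 after quantile normalization. In ERY, 3 members were called higher and 3 lower than in HSPC, against 14.0% and 20.3% of expressed genes. Between MEG and ERY, 1 member was called higher in MEG and 0 lower, against 14.6% and 12.7%. The arrays of the compared populations did not overlap for 4 members between MEG and HSPC, where 40.2% of expressed genes did not, for 5 between ERY and HSPC (51.2%) and for 5 between MEG and ERY (48.1%). The median change of the 9 genes was 0.14, -0.19 and -0.17 log2 units in these comparisons, and that of all expressed genes was -0.18, -0.12 and -0.04. The comparisons of MEG and of ERY with HSPC use the same HSPC arrays and are not independent of each other. Each gene has 1 estimate of spread over the 3 populations, so the SE and p of MEG against ERY also carry the HSPC spread. In turn, the SE and p of the HSPC comparisons carry the ERY and MEG spreads. These can be too small where HSPC varies most, as for *Suz12* (SD 1.45 in HSPC, 0.26 in ERY) and *Ezh2* (0.99 and 0.09).

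*Ezh1*, the PRC2 methyltransferase of the lower enzymatic activity, was higher in both lineages than in HSPC on every array. Its log2 levels on arrays 1 to 4 were 8.44, 8.40, 8.11 and 8.03 in HSPC, 9.37, 9.65, 9.02 and 9.25 in ERY, and 10.29, 8.73, 8.80 and 8.81 in MEG. No MEG or ERY array reached down to the highest HSPC array, and MEG array 1 stood 1.56 above the lowest of its group. The change was 1.08 ± 0.31 (SE, n = 4 per population) in ERY, or 2.11-fold (limma adjusted p = 0.00951), and it passed the thresholds. In MEG it was 0.91 ± 0.31, or 1.88-fold (limma adjusted p = 0.0230), short of 2-fold. The ERY call was lost without HSPC arrays 3 and 4 (0.90, adjusted p = 0.0773) and without ERY array 2 (0.97), and without HSPC arrays 1 and 2 the ERY change was 1.25. The MEG value rested on MEG array 1, without which it was 0.53 (limma adjusted p = 0.0284), and it passed 2-fold without MEG array 2 (1.06), 3 (1.03) or 4 (1.03) or HSPC arrays 1 and 2 (1.09), and was 0.74 without HSPC arrays 3 and 4. MEG and ERY differed by -0.17 ± 0.31, with a 95% interval from -0.83 to 0.49, and by -0.54 without MEG array 1.

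*Ezh2*, the methyltransferase of dividing cells, had its highest mean in ERY. Its levels were 11.52, 10.72, 9.85 and 9.27 on HSPC arrays 1 to 4, 11.60, 11.42, 11.50 and 11.40 in ERY, and 9.96, 10.87, 10.79 and 10.31 in MEG. The 4 ERY arrays lay within 0.20 log2 units, HSPC array 1 lay among them, and all MEG arrays were below all ERY arrays. *Ezh2* was 1.14 ± 0.38 higher in ERY than in HSPC, or 2.20-fold (limma adjusted p = 0.0238, n = 4). This call rested on HSPC arrays 3 and 4: without them the change was 0.36 (adjusted p = 0.319), without arrays 1 and 2 it was 1.92, without array 3 alone 0.97 and without array 4 alone 0.78, and without ERY array 1 the adjusted p was 0.0554. MEG differed from HSPC by 0.14 ± 0.38, and the sign depended on the HSPC arrays, at 0.92 without arrays 1 and 2 and -0.64 without arrays 3 and 4. Between MEG and ERY the difference was -0.996 ± 0.385, or 1.99-fold, with a limma adjusted p of 0.0534. It missed both thresholds although the arrays did not overlap. This SE also holds the HSPC spread, since the SD was 0.99 in HSPC, 0.09 in ERY and 0.43 in MEG. Over 25 alternatives the limma adjusted p went from 0.000456 to 0.135, and the difference stayed uncalled.

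*Eed* codes for the subunit that binds the methyl mark and stimulates the enzyme. It stood at 9.55, 8.98, 7.87 and 7.60 on HSPC arrays 1 to 4, at 9.12, 8.66, 8.75 and 8.50 in ERY and at 8.47, 8.47, 8.54 and 7.45 in MEG. The HSPC arrays spanned the levels of both lineages, and MEG array 4 was the lowest of all 12. No comparison was called: the change was -0.27 ± 0.39 in MEG and 0.26 ± 0.39 in ERY, and MEG and ERY differed by -0.53 ± 0.39 (95% interval from -1.36 to 0.31, n = 4). The choice of HSPC arrays made calls, of 1.02 in ERY without arrays 1 and 2 (limma adjusted p = 0.0104) and of -1.04 in MEG without arrays 3 and 4 (limma adjusted p = 0.0217), and turned the sign, to 0.50 in MEG without arrays 1 and 2 and -0.51 in ERY without arrays 3 and 4. A further *Eed* probe set lay between 4.37 and 4.93 on all arrays, under the expression limit, and was not used.

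*Suz12*, the PRC2 scaffold, had the largest change of any member in ERY. Its levels were 10.61, 9.57, 8.01 and 7.45 on HSPC arrays 1 to 4, 11.21, 10.70, 11.15 and 10.76 in ERY, and 10.30, 10.28, 10.41 and 9.77 in MEG. All ERY arrays were above all HSPC and MEG arrays, and the MEG arrays fell inside the HSPC range. In ERY *Suz12* rose by 2.05 ± 0.52, or 4.13-fold (limma adjusted p = 0.00493, n = 4). In MEG the difference was 1.28 ± 0.52, or 2.43-fold, with a limma adjusted p of 0.0530. Both values depended on the HSPC arrays: without arrays 1 and 2 they were 3.23 in ERY and 2.46 in MEG, and without arrays 3 and 4 they were 0.86 and 0.10, under 2-fold in either lineage. The MEG difference was called in 9 of 25 alternatives, among them centring on ribosomal protein genes. It was also called without HSPC array 1 (1.85) or 2 (limma adjusted p = 0.0426), and with the replicate number as a block its limma adjusted p was 0.0318. MEG was 0.76 ± 0.52 below ERY, at a limma adjusted p of 0.271. This SE also holds the HSPC spread, since the SD was 1.45 in HSPC, 0.26 in ERY and 0.28 in MEG. Over 25 alternatives the limma adjusted p went from 0.00278 to 0.441, and the difference stayed uncalled.

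*Bmi1*, the ring finger partner of the PRC1 ubiquitin ligase, was the only member called between MEG and ERY. It was measured at 7.39, 8.13, 8.14 and 7.25 on MEG arrays 1 to 4, at 6.65, 6.40, 6.87 and 6.75 in ERY and at 7.69, 7.13, 6.61 and 6.28 in HSPC. All MEG arrays were above all ERY arrays, and the HSPC arrays spanned from below the lowest ERY array to above MEG array 1. The MEG level exceeded that of ERY by 1.06 ± 0.30, or 2.08-fold (limma adjusted p = 0.0116, n = 4). Close to the threshold, the call was lost without ERY array 2 (0.97), MEG array 2 (0.92) or MEG array 3 (0.92), and under quantile normalization (0.94). MEG differed from HSPC by 0.80 ± 0.30 (limma adjusted p = 0.0384, under 2-fold), and by 1.05 without HSPC array 1, 1.28 without HSPC arrays 1 and 2, both called, and 0.31 without arrays 3 and 4. ERY differed from HSPC by -0.26 ± 0.30, and by 0.22 without HSPC arrays 1 and 2 and -0.74 without arrays 3 and 4.

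*Cbx2*, a chromodomain subunit of PRC1, was lower in both lineages than in HSPC. The HSPC arrays 1 to 4 read 8.32, 9.13, 9.62 and 9.54, the ERY arrays 7.36, 7.44, 7.27 and 7.54, and the MEG arrays 7.11, 6.91, 7.07 and 6.95. The 3 populations were separate, with every HSPC array above every ERY array and every ERY array above every MEG array. *Cbx2* fell by 2.14 ± 0.24 in MEG, or 4.41-fold (limma adjusted p = 1.49e-05, n = 4), which was the largest change of the 9 genes in that comparison. In ERY it fell by 1.75 ± 0.24, or 3.37-fold (limma adjusted p = 5.41e-05). Both calls stood without HSPC arrays 1 and 2 (-2.57 in MEG, -2.18 in ERY) and without arrays 3 and 4 (-1.71 and -1.32). MEG and ERY differed by -0.39 ± 0.24 (95% interval from -0.91 to 0.13).

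*Cbx8*, its neighbour on chromosome 11 and another chromodomain subunit, was also lower in both lineages. It read 7.12, 7.32, 7.90 and 8.02 on HSPC arrays 1 to 4, 6.43, 6.39, 6.27 and 6.28 in ERY and 6.35, 6.29, 6.54 and 6.20 in MEG. The HSPC arrays were above all others, and the MEG and ERY arrays lay close to the expression limit. The change was -1.25 ± 0.20 in MEG (2.37-fold, limma adjusted p = 0.000236, n = 4) and -1.25 ± 0.20 in ERY (2.38-fold, limma adjusted p = 0.000195). Without HSPC arrays 3 and 4 it was -0.88 in either lineage, under 2-fold, with adjusted p values of 0.00175 and 0.00127, and without arrays 1 and 2 it was -1.62 in both. MEG and ERY differed by 0.00 ± 0.20, with an interval from -0.43 to 0.44.

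*Cbx7*, the chromodomain subunit that is best known for repression of the *Ink4a* locus, was not called in any comparison. Its levels were 6.53, 6.75, 7.24 and 7.43 on HSPC arrays 1 to 4, 6.83, 6.80, 6.74 and 6.84 in ERY, and 7.56, 7.14, 6.95 and 7.08 in MEG. The HSPC arrays spanned the ERY levels, and all MEG arrays were above all ERY arrays. It differed from HSPC by 0.19 ± 0.21 in MEG (95% interval from -0.26 to 0.64) and by -0.19 ± 0.21 in ERY (from -0.64 to 0.26). Changes of 2-fold lay outside both intervals of this fit. Over 24 alternatives the value went from -0.15 to 0.77 in MEG and from -0.53 to 0.26 in ERY. The sign depended on the HSPC arrays, at -0.15 in MEG and -0.53 in ERY without arrays 1 and 2 and 0.54 and 0.16 without arrays 3 and 4. MEG exceeded ERY by 0.38 ± 0.21, with a limma adjusted p of 0.173 (n = 4).

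*Phc1*, a Polyhomeotic subunit that links PRC1 complexes, completed the genes that were lower in the lineages. HSPC arrays 1 to 4 stood at 8.11, 8.68, 8.83 and 8.88, ERY arrays at 6.77, 6.63, 6.94 and 6.96, and MEG arrays at 7.19, 7.17, 7.39 and 6.81. The lowest HSPC array was above the highest array of either lineage, and MEG and ERY overlapped. *Phc1* fell by 1.48 ± 0.20 in MEG, or 2.80-fold (limma adjusted p = 5.68e-05, n = 4), and by 1.80 ± 0.20 in ERY, or 3.48-fold (limma adjusted p = 8.11e-06). Both calls stood without HSPC arrays 1 and 2 (-1.71 in MEG, -2.03 in ERY) and without arrays 3 and 4 (-1.26 and -1.57). MEG and ERY differed by 0.32 ± 0.20 (limma adjusted p = 0.232).

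**Figure D2:**
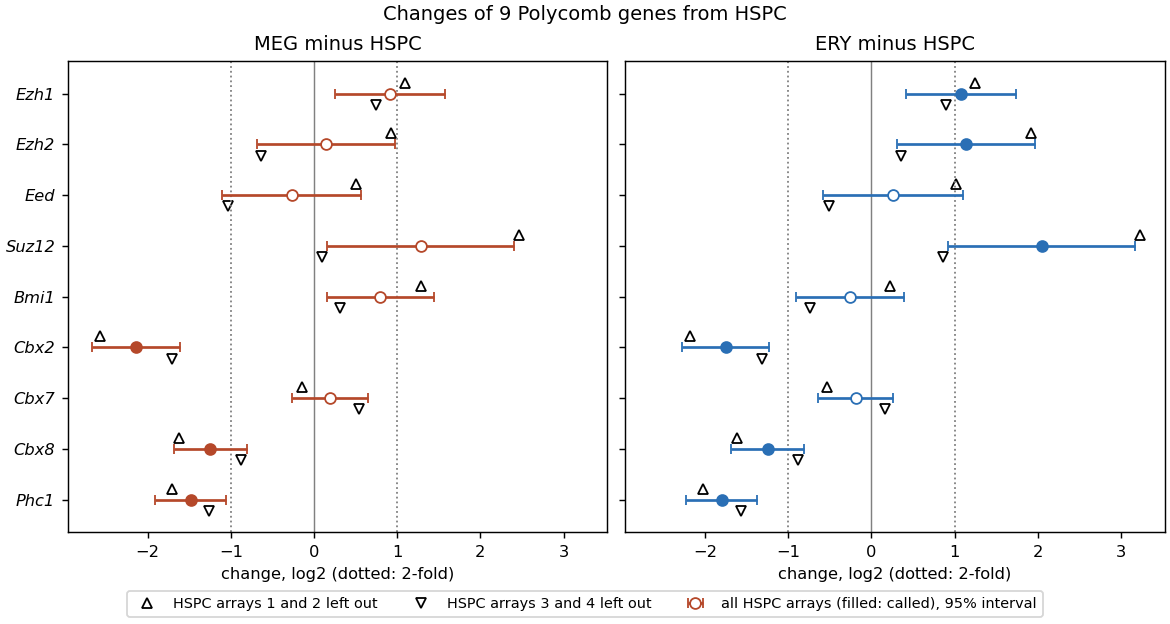
Change of each gene from HSPC on the log2 scale (horizontal axis) in MEG and in ERY, with the 95% interval as a bar, filled where called, and triangles for the value without HSPC arrays 1 and 2 or without arrays 3 and 4. The triangles of *Suz12* in ERY lie at 3.23 and 0.86, and those of *Cbx2* and *Phc1* stay beyond 2-fold in both lineages.

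Differences between paralogues were followed on each array, with the HSPC mean set to 0 since levels of different probe sets cannot be compared. *Cbx7* minus *Cbx8* varied little among the HSPC arrays, at 0.01, 0.03, -0.06 and 0.02, although each gene alone moved along the HSPC axis. It was 1.06 ± 0.08 in ERY and 1.44 ± 0.33 in MEG (SD, n = 4). *Cbx7* minus *Cbx2* was 0.38, -0.21, -0.22 and 0.06 in HSPC, 1.57 ± 0.08 in ERY and 2.33 ± 0.24 in MEG, without overlap among the 3 populations. Relative to HSPC, the RNA level of *Cbx7* was thus higher against those of *Cbx2* and *Cbx8* on all 8 MEG and ERY arrays, with *Cbx2* and *Cbx8* called lower and *Cbx7* not called.

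*Ezh2* minus *Ezh1* did not separate the populations. It was 0.98, 0.23, -0.35 and -0.86 on HSPC arrays 1 to 4, 0.06 ± 0.29 in ERY and -0.77 ± 1.14 in MEG. MEG array 1 was at -2.42 and held both the highest *Ezh1* and the lowest *Ezh2* of the MEG arrays, where the other MEG arrays were at 0.05, -0.10 and -0.60. On that array the median of the 24 DNA replication genes was 7.30, against 9.13, 9.02 and 8.34 on MEG arrays 2 to 4 and 10.32 to 10.69 in ERY. Of these 24 genes, 19 were called lower in MEG than in HSPC, 8 were called higher in ERY, and 22 had lower levels in MEG than in ERY by the same thresholds, and their part in the PRC2 levels was not tested.

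**Figure D3:**
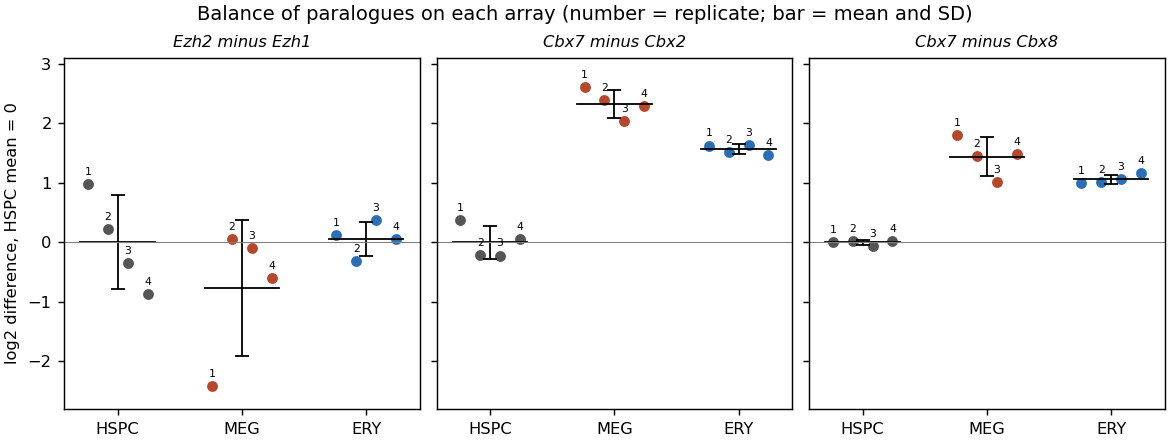
Log2 difference between paralogues on each array (vertical axis, HSPC mean set to 0), with the array number at each point and the mean and SD as lines. MEG array 1 is at -2.42 for *Ezh2* minus *Ezh1*, and all MEG and ERY arrays lie above all HSPC arrays for both *Cbx7* differences.

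The expressed genes nearest to 3 of the members in their centred pattern over the 12 arrays were found by the root mean square difference, as a description. Nearest to *Ezh1* were *Marf1* (0.155 log2 units), *Epg5* (0.181) and *Etfbkmt* (0.222). Nearest to *Ezh2* were *Baz1b* (0.114), *Nbn* (0.132) and *Hnrnpr* (0.134). Nearest to *Cbx7*, which varied little, were *9130213A22Rik* (0.121), *Ppp1r3f* (0.122) and *H2-T10* (0.125).

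The other genes of these complexes and their opponents, from lists of PRC2 partners, PRC1 subunits, the deubiquitinase PR-DUB, demethylases of histone H3 lysine 27 and trithorax group genes, numbered 50, of which 47 were measured and 45 expressed. In MEG 4 were called higher and 6 lower than in HSPC, against 14.2% and 18.8% of all expressed genes. In ERY 7 were higher and 5 lower (14.0% and 20.3%), and in MEG against ERY 2 higher and 6 lower (14.6% and 12.7%). Centred on ribosomal protein genes, which raises all changes, the counts were 15 higher and 2 lower in MEG and 8 and 1 in ERY. In MEG against ERY they were 3 and 5. The larger direction in MEG thus turned, as it did among all called genes, of which 43.1% were higher without this centring and 77.7% with it. The median changes of the 45 genes without this centring were -0.39, 0.07 and -0.20 log2 units, against -0.18, -0.12 and -0.04 for all expressed genes. These counts in MEG against HSPC depended on the HSPC arrays, since 20 of the genes were called without arrays 1 and 2, 17 without array 1 alone, and 10 with all arrays.

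Of the 8 PRC2 partners, 1 was called higher and 3 lower in MEG, and 0 were called in ERY, where the changes lay between -0.80 and 0.35. *Jarid2*, a subunit that recruits PRC2 and moderates its activity, was measured at 11.78, 11.42, 11.50 and 11.18 on the MEG arrays, at 9.94, 9.54, 8.79 and 8.49 in HSPC and at 9.39, 9.11, 9.27 and 9.34 in ERY. All MEG arrays were above all other arrays. *Jarid2* rose in MEG by 2.28 ± 0.27 from HSPC (limma adjusted p = 2.41e-05, n = 4), by 1.73 without HSPC arrays 3 and 4, and exceeded ERY by 2.19. *Phf19*, a Polycomb-like subunit that reads trimethylated lysine 36, was at 6.22, 5.97, 6.33 and 6.12 in MEG and between 7.78 and 8.52 on all HSPC and ERY arrays. It fell by 1.86 ± 0.18 from HSPC to MEG (limma adjusted p = 4.04e-06). *Rbbp4*, a histone chaperone shared with other complexes, fell by 1.10 ± 0.15 in MEG (limma adjusted p = 7.34e-05), and *Epop*, a PRC2 modulator, by 1.01 ± 0.22 (limma adjusted p = 0.00179), a call lost without HSPC array 3 (-0.92) or 4 (-0.83), MEG array 4 (-0.97), or HSPC arrays 3 and 4 (-0.60).

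Of 6 expressed partners in canonical PRC1, *Pcgf2*, a paralogue of *Bmi1*, was the only gene called with all arrays. It read 6.76, 7.22, 7.36 and 7.55 in HSPC, 5.88, 6.29, 5.91 and 6.13 in ERY and 7.30, 6.86, 6.63 and 6.57 in MEG. Every ERY array was below every other array. *Pcgf2* fell by 1.17 ± 0.21 in ERY (limma adjusted p = 0.000495, n = 4), and by 0.94 without HSPC arrays 3 and 4, under 2-fold. It was 0.78 higher in MEG than in ERY, short of 2-fold. *Phc3*, a paralogue of *Phc1*, was called in both lineages where its probe sets were averaged (1.57 in MEG, 1.15 in ERY), against 0.50 and 0.19 by its highest probe set. *Rnf2*, the ubiquitin ligase, was called at 1.22 in MEG without HSPC arrays 1 and 2 and at -1.05 in ERY without arrays 3 and 4, against 0.47 and -0.30 with all arrays. *Scmh1*, a sex comb protein, was 0.99 lower in MEG than in ERY and was called under quantile normalization (-1.06) and without ERY array 2 (-1.09) or MEG array 1 (-1.04), 2 (-1.01) or 3 (-1.07). These 3 genes were named after their values were seen. *Bmi1* and *Pcgf2*, the alternative ring finger subunits of canonical PRC1, were both lower on every ERY array than on every MEG array. Such arrays without overlap were found for 48.1% of expressed genes, and of the pair only *Bmi1* was called.

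Among 16 genes of variant PRC1, 1 was called higher and 1 lower in MEG, and 3 higher and 1 lower in ERY. *Usp7*, a deubiquitinase found in these complexes, read 11.95, 11.92, 11.77 and 11.73 in ERY, 9.52, 10.26, 10.27 and 9.49 in MEG and 10.65, 9.90, 8.88 and 8.58 in HSPC. All ERY arrays were above all others, and it rose by 2.34 ± 0.38 in ERY (limma adjusted p = 0.00018, n = 4), by 1.57 without HSPC arrays 3 and 4 and by 3.11 without arrays 1 and 2. *Yaf2*, a RING1-binding subunit, rose by 1.69 ± 0.31 in MEG (limma adjusted p = 0.000539), by 1.06 without HSPC arrays 3 and 4. *Pcgf5*, a ring finger subunit, was lower in MEG than in ERY by 1.61 (limma adjusted p = 0.00187), and its ERY change of 1.02 from HSPC was 0.47 without HSPC arrays 3 and 4 and 1.56 without arrays 1 and 2, and was lost without HSPC array 3 (0.86) or 4 (0.81) and ERY array 2 (0.97) or 1 (adjusted p = 0.053). *L3mbtl2*, a reader of methylated histones, fell by 1.43 in MEG, *Kdm2b*, which binds unmethylated CpG islands, fell by 1.34 in ERY, and *Bcorl1*, a corepressor, rose by 1.11 in ERY.

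The demethylases moved in different ways. *Kdm6a* (UTX), which removes methyl groups from lysine 27, read 9.21, 8.40, 7.14 and 6.74 in HSPC, 10.82, 10.67, 10.56 and 10.34 in ERY and 10.54, 9.80, 9.82 and 9.26 in MEG. All MEG and ERY arrays were above all HSPC arrays, and the HSPC arrays spread in the manner of *Suz12*. It rose by 2.72 ± 0.45 in ERY (limma adjusted p = 0.000213, n = 4) and by 1.98 ± 0.45 in MEG (limma adjusted p = 0.00239), and by 1.79 and 1.05 without HSPC arrays 3 and 4. *Kdm6b* (JMJD3), its paralogue, was at 7.19, 7.32, 7.15 and 7.21 in ERY and between 8.15 and 8.94 on all other arrays. It fell by 1.30 ± 0.18 in ERY (limma adjusted p = 5.63e-05) and was 1.14 higher in MEG than in ERY. Thus *Kdm6a* was called higher and *Kdm6b* lower in ERY, and the MEG change of *Kdm6b* was -0.15 ± 0.18.

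Of 10 expressed trithorax group genes, 1 was called higher and 1 lower in MEG, and 2 higher and 2 lower in ERY. *Kmt2c*, a methyltransferase of histone H3 lysine 4 at enhancers, rose by 1.59 ± 0.42 in MEG (limma adjusted p = 0.00625) and by 2.02 ± 0.42 in ERY (limma adjusted p = 0.00124, n = 4). Without HSPC arrays 3 and 4 these were 0.71, which was not called, and 1.14, and without arrays 1 and 2 the MEG value was 2.47. *Men1*, the menin adaptor of the MLL complexes, fell by 1.70 ± 0.26 in MEG and by 1.51 ± 0.26 in ERY, with adjusted p values of 0.000153 and 0.000331. *Psip1*, which tethers menin and MLL to chromatin, was 1.49 higher in ERY than in HSPC, and 0.81 higher and not called without HSPC arrays 3 and 4, and *Wdr5*, a core subunit of the MLL complexes, fell by 1.26 in ERY. In PR-DUB, which removes ubiquitin from H2A, the catalytic *Bap1* fell by 1.25 ± 0.21 in MEG (limma adjusted p = 0.000272), *Asxl2* was 1.37 higher in ERY, and 0.71 higher and not called without HSPC arrays 3 and 4, and *Asxl1* was 1.12 lower in MEG than in ERY, and 0.96 lower and not called without MEG array 4.

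**Figure D4:**
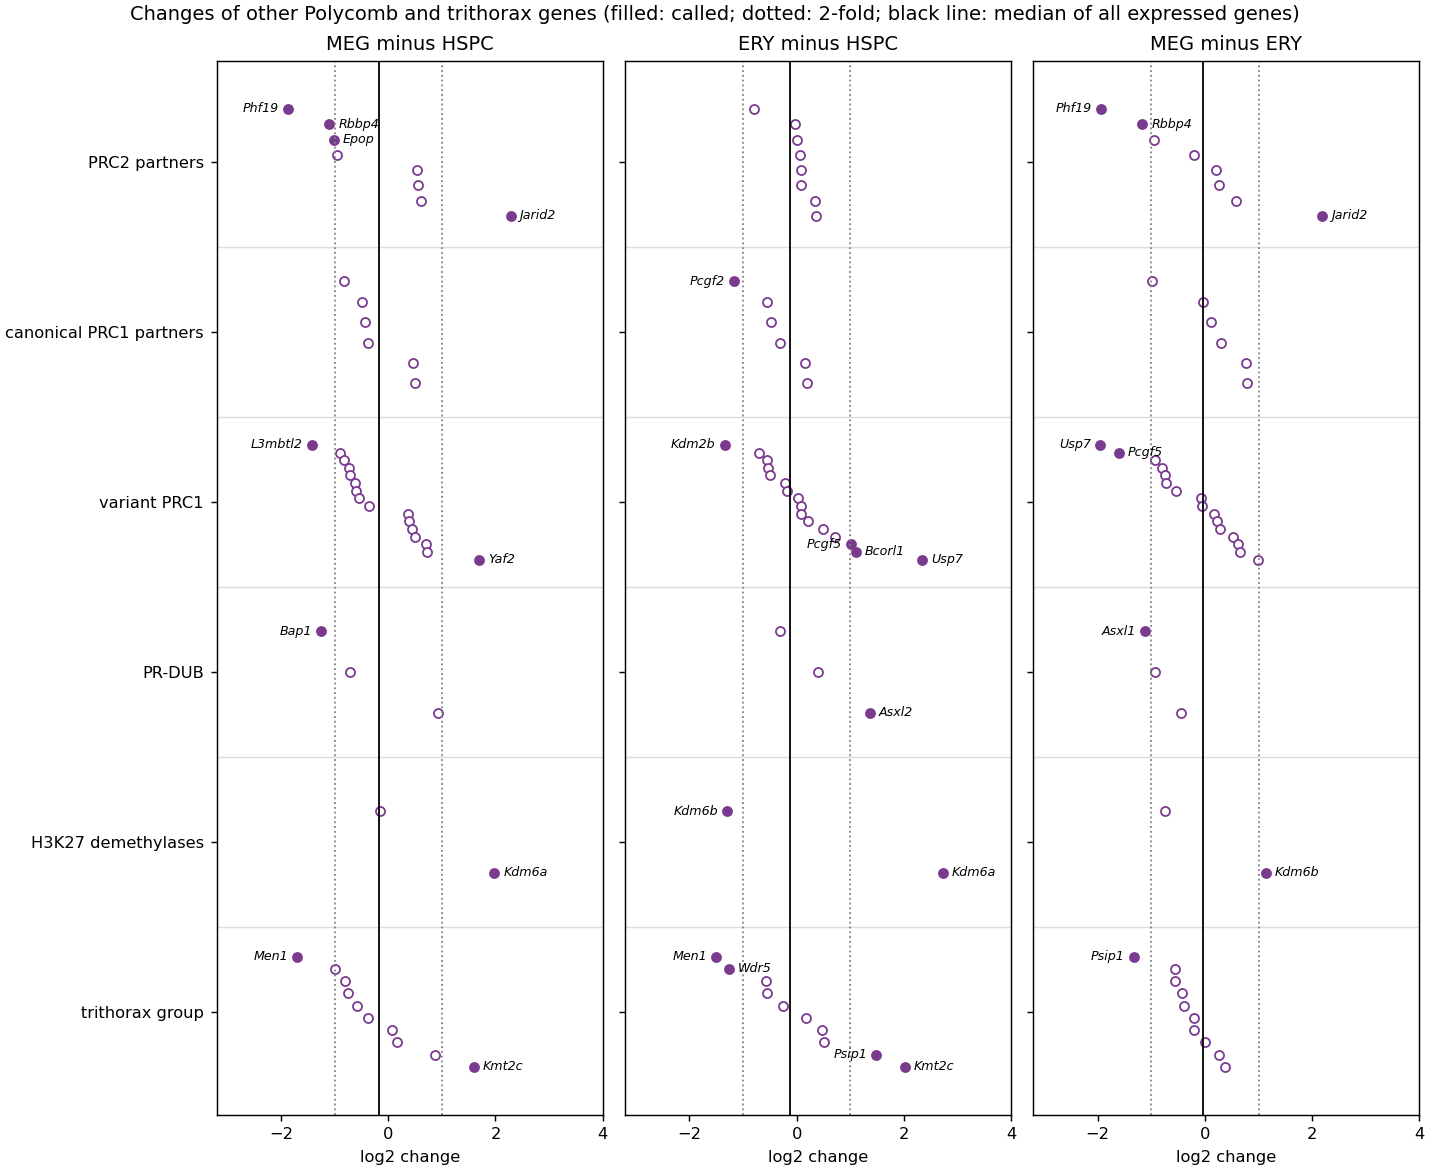
Log2 change (horizontal axis) of 45 other expressed Polycomb and trithorax genes by list in MEG minus HSPC, ERY minus HSPC and MEG minus ERY, each gene a circle that is filled and named where called, with the 2-fold limits dotted and the median of all expressed genes as a black line. In the PRC2 list *Jarid2* is at 2.28 and *Phf19* at -1.86 in MEG, and no partner of PRC2 is called in ERY.

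The Ink4 and Cip genes, which code for inhibitors of cyclin-dependent kinases, are given for comparison. Among them *Cdkn2a* and *Cdkn2b* are known targets of Polycomb repression. *Cdkn2a* (p16 and p19Arf) read 5.66, 5.89, 6.32 and 6.51 in HSPC, 6.06, 6.31, 6.27 and 6.17 in ERY and 6.96, 7.02, 6.95 and 6.50 in MEG. It was 0.76 ± 0.20 higher in MEG than in HSPC (limma adjusted p = 0.00665, n = 4), short of 2-fold. It was called without HSPC arrays 3 and 4 (1.08, limma adjusted p = 0.00115) and with ribosomal centring (1.34), and was 0.44 without HSPC arrays 1 and 2. *Cdkn2b* (p15) read 7.67, 8.15, 8.04 and 7.52 in MEG and between 6.07 and 6.76 on all HSPC and ERY arrays, and it rose in MEG by 1.41 ± 0.20 (limma adjusted p = 9e-05). *Cdkn2c* (p18) read 10.18, 10.21, 10.05 and 10.12 in ERY and between 5.29 and 6.34 on all other arrays, and it rose in ERY by 4.16 ± 0.17 (limma adjusted p = 1.31e-09). The changes of *Cdkn2b* and *Cdkn2c* were called with either pair of HSPC arrays left out. *Cdkn1c* (p57) was 1.38 lower in MEG than in ERY.

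Of the *Hoxa* and *Hoxb* genes, which Polycomb complexes silence in many tissues, 19 were measured and 7 were expressed. The median of the 19 genes was 5.60 to 5.91 on the HSPC arrays, 5.36 to 5.47 in ERY and 5.27 to 5.54 in MEG. *Hoxa9*, a gene of early progenitors, was the only one called, at 8.03, 7.76, 7.20 and 7.02 in HSPC, between 5.66 and 5.95 in ERY and between 5.56 and 5.95 in MEG. Every HSPC array was above every other array. *Hoxa9* fell by 1.67 ± 0.22 in MEG (limma adjusted p = 4.83e-05) and by 1.77 ± 0.22 in ERY (limma adjusted p = 2.1e-05, n = 4). *Hoxa7*, named after its values were seen, fell by 0.98 in MEG and 0.88 in ERY, short of 2-fold. All its HSPC arrays were above all others. Some alternatives called it, among them the fit without HSPC arrays 1 and 2 in MEG (-1.09) and array weights in both lineages (-1.23 and -1.04). With ribosomal centring the MEG change was -0.40.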

How the data were processed

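RNA of 12 samples (total RNA per the labels, affinity-purified mRNA per the study's methods), 4 biological replicates each of HSPC (labelled HSC), ERY and MEG, was hybridized to GeneChip Mouse Gene ST arrays. The log2 values deposited by the authors are RMA summaries of probe sets. RMA is named in the submitters' processing notes, and its version and settings are not given in what was used here. RMA equalizes the arrays, so a global change of RNA content is not seen; array medians were 5.99 to 6.25. The number of arrays limits the precision. Of 34760 probe sets, 21640 carry 1 gene symbol, 1321 several and 11799 are unnamed here. This gave 19937 genes, 954 of them with several probe sets, of which the highest was taken. Some listed genes were not analysed here, nor were the chromatin data.

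Populations were compared with limma 3.58.1 in R 4.3.3 on all 12 arrays, with 1 mean per population and Benjamini-Hochberg adjustment over 12032 expressed genes; called means a change over 2-fold at an adjusted p under 0.05. The fit was run on simulated data with known changes and independent noise on each array. The HSPC arrays share an axis, so that run does not measure the error rates in these data. Promoters were searched with pandas 2.3.3 and numpy 2.4.6 under Python 3.11.15, and plots were drawn by matplotlib 3.10.9. The members, lists and motifs were chosen with earlier results of these data known. Named genes are the members, up to 4 called genes per list and comparison with the largest change, and the 3 genes nearest to *Ezh1*, *Ezh2* and *Cbx7*. Alternatives were a fit of the 8 arrays compared, a replicate block, each array or HSPC pair left out, no expression limit, as many of the highest genes as the study calls expressed, quantile normalization, centring on 58 ribosomal protein genes, array weights, a trended robust variance, averaged probe sets, a 1.5-fold limit and an adjusted p under 0.01.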

Additional observations from a re-analysis of the deposited data

Results flagged for a closer look

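In MEG, *Ezh1* on array 1 was at 10.29, far from the other 3 arrays, with a gap of 0.943 of the whole range of the group. *Eed* on MEG array 4 was at 7.45, with a gap of 0.937 of the range. Among 27 groups of 4 arrays, Dixon's critical value at 95% is passed by chance in about 1 of 20 groups, or 1.35 of the 27.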

How the results depend on the processing

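Of 27 changes of members (9 genes, 3 comparisons), 15 kept their side of the thresholds under all 24 or 25 alternatives, and no called change turned its sign. Of 666 values, 18 lost a call and 22 gained one. The members called in MEG against HSPC, 3 in all, became 6 without HSPC arrays 1 and 2, 5 with array weights and 5 at 1.5-fold, and 3 to 5 with each array left out. Of those called, 3 were higher without HSPC arrays 1 and 2, 2 with array weights and 2 at 1.5-fold, against 0 in the main fit. A replicate block, quantile normalization, a trended robust variance and the set of the highest genes gave 1 higher each. Ribosomal centring gave 3 higher and 1 lower. The members called in ERY against HSPC, 6 in all, became 2 without HSPC arrays 3 and 4. The 1 member called between MEG and ERY became 0 in the smaller set of the highest genes, under quantile normalization and at an adjusted p under 0.01. With each array left out it became 0 to 1. In the smaller set *Bmi1*, *Cbx7* and *Cbx8* are not tested, in any comparison. The other Polycomb and trithorax genes called in MEG against HSPC, 10 in all, became 20 without HSPC arrays 1 and 2, 17 with ribosomal centring, 18 with array weights, 21 at 1.5-fold, and 9 to 17 with each array left out, and those between MEG and ERY, 8 in all, became 16 at 1.5-fold. Centring on ribosomal protein genes raised the median change of all expressed genes by 0.58 in MEG, 0.44 in ERY and 0.14 in MEG against ERY, and the share of higher among called genes went from 43.1% to 77.7%, from 40.9% to 66.4% and from 53.6% to 61.3%. It took *Cbx8* (-0.67 in MEG, -0.80 in ERY) and *Phc1* in MEG (-0.90) below 2-fold and called *Ezh1* (1.49), *Suz12* (1.86) and *Bmi1* (1.38) higher in MEG. It also took *Rbbp4* (-0.52), *Epop* (-0.43), *L3mbtl2* (-0.85) and *Bap1* (-0.67) in MEG, *Pcgf2* (-0.72), *Kdm2b* (-0.90), *Kdm6b* (-0.85) and *Wdr5* (-0.82) in ERY, and *Asxl1* between MEG and ERY (-0.98) below 2-fold. Quantile normalization moved the median by 0.13 in ERY. Apart from the members untested in the smaller set, the cause was not tested.

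Of 12 pairs of same-numbered arrays, 5 had deviations that correlated above 0.1, and the correlations went from -0.35 to 0.37. Differently numbered pairs are not set beside them, so a pairing by number was not tested. With a replicate block 4, 6 and 1 members were called in the 3 comparisons.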
